A study of Mus musculus with 8 samples.

Results

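The genes described here are 10 transcription factors that specify or mark neurons of the dorsomedial hypothalamus (DMH) and its neighbours: Prdm13, Nkx2-1, Hmx2, Hmx3, Bsx, Lhx6, Otp, Sim1, Tbx3 and Isl1. They were chosen by name from what is known of hypothalamic development, but with earlier results of these data known. They were 10 of the 55487 gene identifiers in each library's table. Of the 10, 9 passed the filter on low counts and were among the 17339 genes tested; Hmx3 did not. RNA of the DMH of mice was sequenced in 8 libraries, and the sample titles mark the tissue as collected by laser microdissection. In the group shPpp1r17, with 4 libraries, a short hairpin RNA was directed against Ppp1r17, which encodes an inhibitor of protein phosphatases and marks a set of DMH neurons. In the group shfLuc, also with 4 libraries, the hairpin was directed against firefly luciferase, a gene that mice lack. Strain, sex, age, the vector, the promoter driving the hairpin and the cells it reached are not given in the labels. Both groups carried a hairpin, and tissue without one was not part of the comparison.

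Neurons of the hypothalamus are sorted into nuclei during development by combinations of transcription factors, and many of these factors stay on in the adult, where they serve as names for cell types. Nkx2-1 is needed early for the whole ventral hypothalamus, Hmx2, Hmx3, Bsx, Isl1, Tbx3 and Prdm13 mark groups of tuberal neurons in the DMH and arcuate nucleus, Otp and Sim1 direct the neuroendocrine lineage of the paraventricular nucleus, and Lhx6 marks a population of GABAergic neurons near the zona incerta. In the DMH, Prdm13 has been studied for its part in sleep and in ageing. The comparison addresses whether the levels of these identity factors differed after the hairpin against Ppp1r17.

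Libraries held 25637389 to 33907984 estimated reads in shPpp1r17 and 23070147 to 25749643 in shfLuc. The targeted gene stood at 54.8%, 1.29%, 1.94% and 54.5% of its shfLuc mean in shPpp1r17 1 to 4, so the shPpp1r17 libraries 2 and 3 stood apart. Its levels were 87.7, 2.07, 3.10 and 87.2 CPM (read counts scaled to a common library size) in shPpp1r17 and 147, 161, 161 and 171 CPM in shfLuc (exact two-sided permutation p = 0.0286), and in edgeR its log2 fold change was -1.83 (SE 0.80; adjusted p = 0.197). The shPpp1r17 libraries 2 and 3 also lay farthest out on the first principal component, with scores of 46.9 and 46.0 against 16.5 and 2.45 in shPpp1r17 1 and 4 and -43.6 to -8.08 in shfLuc. Sums of cell type markers in CPM did not overlap between the groups for blood cells and for GABAergic and glutamatergic neurons. For the other cell types they overlapped. Rose and fell mean higher and lower in shPpp1r17 at an adjusted p under 0.05 in edgeR. Of all tested genes 3.39 percent rose and 2.66 percent fell. Of the 8 oligodendrocyte markers 3 rose and 0 fell. Their sums were 1406, 2154, 2300 and 1305 CPM in shPpp1r17 1 to 4 and 1265 to 1315 CPM in shfLuc. Of the 8 markers of microglia and macrophages 3 rose and 0 fell. Their sums were 319, 422, 418 and 268 CPM in shPpp1r17 1 to 4 and 197 to 273 CPM in shfLuc. In both of these lists shPpp1r17 2 and 3 were highest, and shPpp1r17 4 lay within the shfLuc range. The 5 markers of blood cells (5 rose) summed to 638 to 1231 CPM in shPpp1r17 and 328 to 567 CPM in shfLuc. The 8 neuronal markers (1 rose, 2 fell) summed to 4225 to 4753 CPM in shPpp1r17 and 4191 to 4240 CPM in shfLuc, and the 5 of GABAergic and glutamatergic neurons (0 rose, 1 fell) to 802 to 900.04 CPM in shPpp1r17 and 995 to 1048 CPM in shfLuc. Of the 8 astrocyte markers 2 rose and 2 fell (2434 to 2686 CPM in shPpp1r17, 2602 to 2893 CPM in shfLuc), of the 6 endothelial markers 1 rose and 0 fell (129 to 211 CPM in shPpp1r17, 122 to 146 CPM in shfLuc), and of the 7 ependymal and tanycyte markers 2 rose and 0 fell (61.8 to 134 CPM in shPpp1r17, 36.4 to 69.0 CPM in shfLuc). Slc17a7, a glutamate transporter of cortical neurons, did not exceed 0.023 TPM in any library. With single libraries left out, the number called ran from 0 to 6 for oligodendrocytes, 0 to 4 for microglia and for astrocytes, 0 to 5 for blood cells, 0 to 3 for neurons and for ependymal cells, 0 to 2 for GABAergic and glutamatergic neurons and 0 to 1 for endothelial cells; each was 0 without shfLuc 2 and without shfLuc 3. Fitted log2 fold changes were above 0 for all tested markers of oligodendrocytes (8), microglia and macrophages (8) and blood cells (5). The same held for endothelial cells (6) and for ependymal cells and tanycytes (6). They were below 0 for all 4 tested markers of GABAergic and glutamatergic neurons. Neurons and astrocytes each had 5 above 0 and 3 below. Of all tested genes 49.4 percent were below 0. The part of these cell types in the results below was not tested. In bulk tissue, fewer cells of a type and less RNA per cell cannot be told apart. Whether the libraries stem from separate animals is not in the labels, and p-values here reflect library-to-library spread, some of which may be technical.

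Transcription factors of other brain regions were read beside the regional label. The 9 genes of hindbrain and spinal cord, such as the Hox genes, summed to 0 to 0.146 CPM in shPpp1r17 and 0 to 0.170 CPM in shfLuc, and 7 of them had no read in any library. The 9 genes of cerebral cortex and hippocampus summed to 7.30 to 8.32 CPM in shPpp1r17 and 5.82 to 8.55 CPM in shfLuc, and the 10 of the thalamus and zona incerta to 302 to 394 CPM in shPpp1r17 and 349 to 473 CPM in shfLuc. The 10 genes described here summed to less than that last list, at 160 to 201 CPM in shPpp1r17 and 169 to 200 CPM in shfLuc. Such sums do not show how much of each region the tissue held. Pmch, the peptide gene of melanin-concentrating hormone neurons in the lateral hypothalamus, was at 829 ± 175 CPM in shPpp1r17 and 1082 ± 355 CPM in shfLuc (SD, n = 4 each).

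Levels per gene length, in TPM as deposited (abundance scaled to gene length and library), ranked the 10 genes as follows. Isl1 stood far above the rest, with 93.1 to 129 TPM in shPpp1r17 and 86.5 to 105 TPM in shfLuc. Bsx, Nkx2-1 and Otp came next and could not be ordered among themselves in shfLuc, where their ranges overlapped. Bsx ran from 2.92 to 6.63 TPM in shPpp1r17 and from 6.83 to 7.90 TPM in shfLuc, Nkx2-1 from 4.67 to 7.56 TPM in shPpp1r17 and from 5.52 to 8.18 TPM in shfLuc, and Otp from 4.54 to 5.95 TPM in shPpp1r17 and from 6.41 to 6.96 TPM in shfLuc. Hmx2 lay below these in every library of both groups, at 1.82 to 2.86 TPM in shPpp1r17 and 3.12 to 4.07 TPM in shfLuc, and overlapped with Prdm13, at 0.632 to 3.16 TPM in shPpp1r17 and 2.16 to 3.33 TPM in shfLuc. Tbx3 (1.27 to 2.01 TPM in shPpp1r17, 1.598 to 1.68 TPM in shfLuc), Lhx6 (0.792 to 2.08 TPM in shPpp1r17, 0.745 to 1.55 TPM in shfLuc) and Sim1 (0.445 to 0.980 TPM in shPpp1r17, 0.862 to 1.34 TPM in shfLuc) followed. Hmx3 was lowest, at 0.145 to 0.342 TPM in shPpp1r17 and 0.320 to 1.45 TPM in shfLuc. The gap between Isl1 and Bsx and that between Otp and Hmx2 were present in both groups. The gap between Sim1 and Hmx3 was present in shPpp1r17, while in shfLuc the ranges of these genes overlapped.

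**Figure D1:**
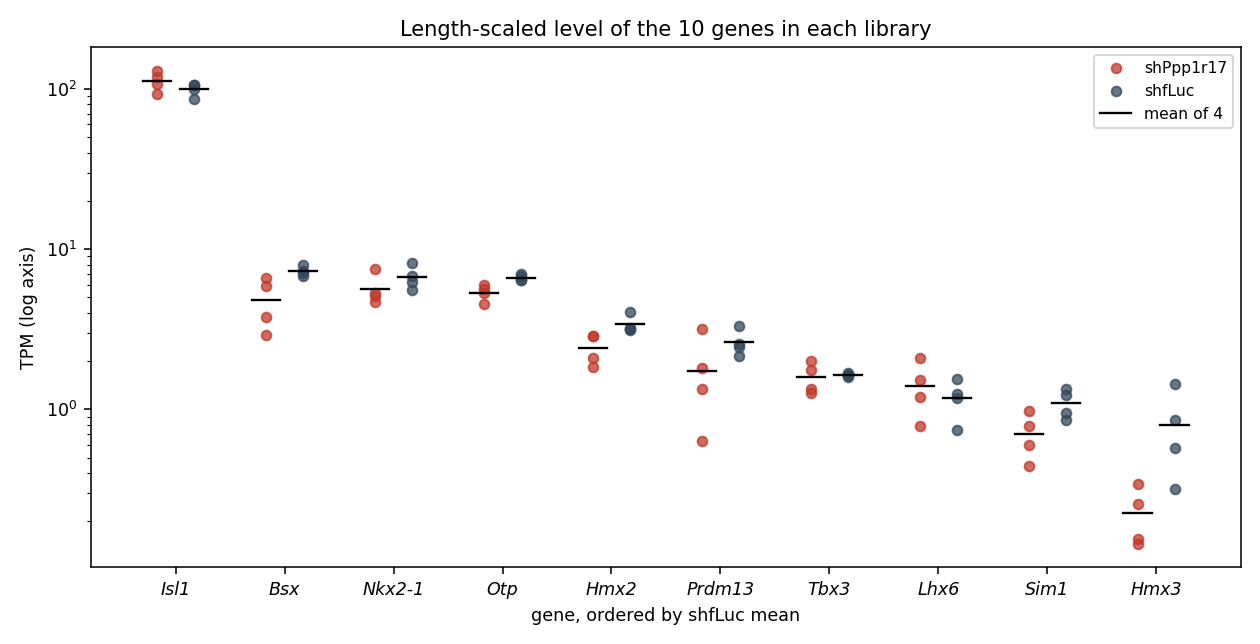
Level of each of the 10 genes in TPM on a log axis, by rank of the shfLuc mean, with 1 point per library and the mean of each group of 4. Isl1 lies at 86.5 TPM and above in all 8 libraries and no other gene exceeds 8.18 TPM.

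No gene of the 10 passed the threshold of an adjusted p of 0.05 between shPpp1r17 and shfLuc in edgeR's quasi-likelihood test. The count was 0 of the 9 tested, where 6.06 percent of all tested genes passed, 3.39 percent higher and 2.66 percent lower in shPpp1r17. The lowest adjusted p was 0.133, for Hmx2. At an unadjusted p under 0.05 edgeR gave 3 of the 9 (Hmx2, Bsx and Sim1), all lower in shPpp1r17, where 22.6 percent of all tested genes met that level and 11 percent did so on the lower side. DESeq2 also called 0 of the 9, where 11 percent of all tested genes passed. Fitted log2 fold changes were below 0 for 6 genes and above 0 for 3, where 49.4 percent of all tested genes were below 0. Their median was -0.24, and that of all tested genes was 0.0043. They ran from -0.62 for Sim1 to 0.31 for Lhx6. Leaving out the shPpp1r17 libraries 2 and 3, an alternative added after seeing the data, brought the median of the 9 to -0.038 and called 0 of them, where 0.205 percent of all tested genes passed.

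**Figure D2:**
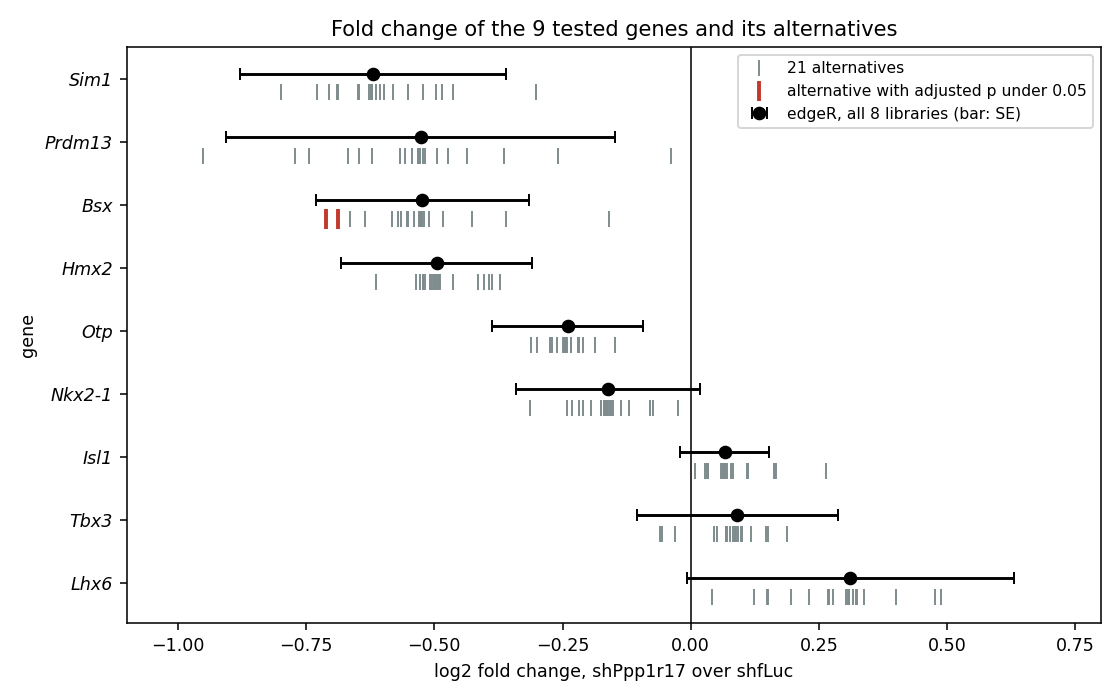
Log2 fold change of the 9 tested genes, shPpp1r17 over shfLuc, in edgeR with all 8 libraries (point, with its SE as a bar) and under 21 alternatives (ticks). Only Bsx has red ticks, the 2 alternatives with an adjusted p under 0.05, and the ticks of Tbx3 lie on both sides of 0.

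Hmx2 and Hmx3 are neighbouring homeobox genes of the NKL class on chromosome 7, and in the mouse they act redundantly for the growth hormone-releasing hormone neurons of the arcuate nucleus. Hmx2 (ENSMUSG00000050100; chr7:131548773-131558014, plus strand, GRCm38) stood at 4.30, 3.67, 4.82 and 5.67 CPM in shPpp1r17 1 to 4, and at 6.18, 6.09, 7.61 and 6.21 CPM in shfLuc 1 to 4. Each shPpp1r17 value was below each shfLuc value, with shPpp1r17 2 lowest and shfLuc 3 highest. The means were 4.62 ± 0.848 CPM in shPpp1r17 and 6.52 ± 0.724 CPM in shfLuc (SD, n = 4 each; exact two-sided permutation p = 0.0286, the smallest that 4 against 4 libraries allow). Across all genes this did not pass: the log2 fold change was -0.50 (SE 0.19; adjusted p = 0.133 in edgeR). Groups that do not overlap always give this permutation p of 0.0286, so it adds nothing to the non-overlap. Non-overlap in this direction was found in 6.74 percent of all tested genes, and in 13.9 percent in either direction. Without shPpp1r17 2 and 3 the log2 fold change was -0.39 (adjusted p = 0.480 in edgeR).

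Hmx2 was the only one of the 10 genes whose longest annotated 3′ UTR held a match to the motif CTCTGATA or to its first or last 7 bases. This motif had been picked from the fold changes of the same libraries, so its presence is no independent evidence, and it is shown to mark the one place in this gene set where it occurs. The 30 bases below are the site at chr7:131557738-131557745 (plus strand, GRCm38, exon 2), which starts at base 1758 of a 3′ UTR of 2034 bases; capitals mark the motif.
Hmx2 3′ UTR site: gaagagatttgCTCTGATAttgcctatttt
Matches were present in 20.2% of 14327 tested genes with a 3′ UTR of at least 50 bases, in 56.9% of the 439 of them called lower in shPpp1r17, and in 1 of the 10 genes described here.

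Hmx3 (ENSMUSG00000040148; chr7:131542867-131544925, plus strand, GRCm38) was near the limit of detection. It had 2, 2, 5 and 4 reads in shPpp1r17 1 to 4, and 7, 10, 16 and 4 reads in shfLuc 1 to 4. In sum these were 13 reads in shPpp1r17 and 37 in shfLuc. The lowest shfLuc library lay within the range of the shPpp1r17 libraries, so the groups overlapped. Mean levels were 0.114 ± 0.0493 CPM in shPpp1r17 and 0.392 ± 0.223 CPM in shfLuc (SD, n = 4 each; exact two-sided permutation p = 0.0571), and the shPpp1r17 mean was 29.1% of the shfLuc mean. The difference did not pass that test, whose smallest p is 0.0286. Ghrh itself, the hormone gene of the neurons that need the pair, was at 22.8 ± 2.59 CPM in shPpp1r17 and 22.5 ± 7.82 CPM in shfLuc (log2 fold change 0.02, SE 0.19, adjusted p = 0.972 in edgeR).

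Bsx encodes a homeodomain protein of DMH and arcuate neurons that mice need for normal Npy and Agrp expression and for spontaneous locomotion. Bsx (ENSMUSG00000054360; chr9:40874127-40880057, plus strand, GRCm38) stood at 11.99, 7.69, 6.14 and 13.23 CPM in shPpp1r17 1 to 4, and at 13.7, 15.3, 13.25 and 14.1 CPM in shfLuc 1 to 4. The shPpp1r17 libraries 2 and 3 were low, libraries 1 and 4 lay just under the shfLuc range, and the groups did not overlap, by a margin of 13.23 in shPpp1r17 4 to 13.25 in shfLuc 3. The means were 9.76 ± 3.39 CPM in shPpp1r17 and 14.1 ± 0.886 CPM in shfLuc (SD, n = 4 each; exact two-sided permutation p = 0.0286). In edgeR the log2 fold change came to -0.52 (SE 0.21; adjusted p = 0.153). Bsx passed in 2 of the alternatives: with limma voom and sample quality weights it was at -0.69 with an adjusted p of 0.0393, where 10.2 percent of all tested genes passed (4.99 percent lower), and in edgeR without shPpp1r17 4 at -0.71 with an adjusted p of 0.0468, where 8.73 percent passed (3.98 percent lower). Over all 21 alternatives its adjusted p ran from 0.0393 to 0.669. The highest came without shPpp1r17 2 and 3, where the log2 fold change was -0.16 (adjusted p = 0.669 in edgeR), so the size of the difference rested on those libraries. Npy was at 11.1 ± 4.86 CPM in shPpp1r17 and 12.2 ± 3.99 CPM in shfLuc (log2 fold change -0.14, SE 0.28, adjusted p = 0.817 in edgeR), and Agrp was at 1.003 ± 0.592 CPM in shPpp1r17 and 0.776 ± 0.352 CPM in shfLuc (0.35, SE 0.52, adjusted p = 0.741 in edgeR).

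Prdm13, a zinc finger protein with a PR domain, varied more between libraries than any other tested gene of the set. Prdm13 (ENSMUSG00000040478; chr4:21677480-21685963, minus strand, GRCm38) stood at 2.34, 0.820, 1.75 and 3.82 CPM in shPpp1r17 1 to 4, from 60, 21, 48 and 130 reads, and at 4.19, 3.07, 2.52 and 2.91 CPM in shfLuc 1 to 4. The shPpp1r17 library 2 was lowest by far and library 4 exceeded 3 of the 4 shfLuc libraries, so the groups overlapped. Within shPpp1r17 the highest library was 4.66 times the lowest, and within shfLuc 1.66 times. The means were 2.18 ± 1.26 CPM in shPpp1r17 and 3.17 ± 0.717 CPM in shfLuc (SD, n = 4 each), and the log2 fold change was -0.53 (SE 0.38, adjusted p = 0.451 in edgeR). It came to -0.95 without shPpp1r17 4 and to -0.038 without shPpp1r17 2 and 3 (adjusted p = 0.122 and 0.974 in edgeR).

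**Figure D3:**
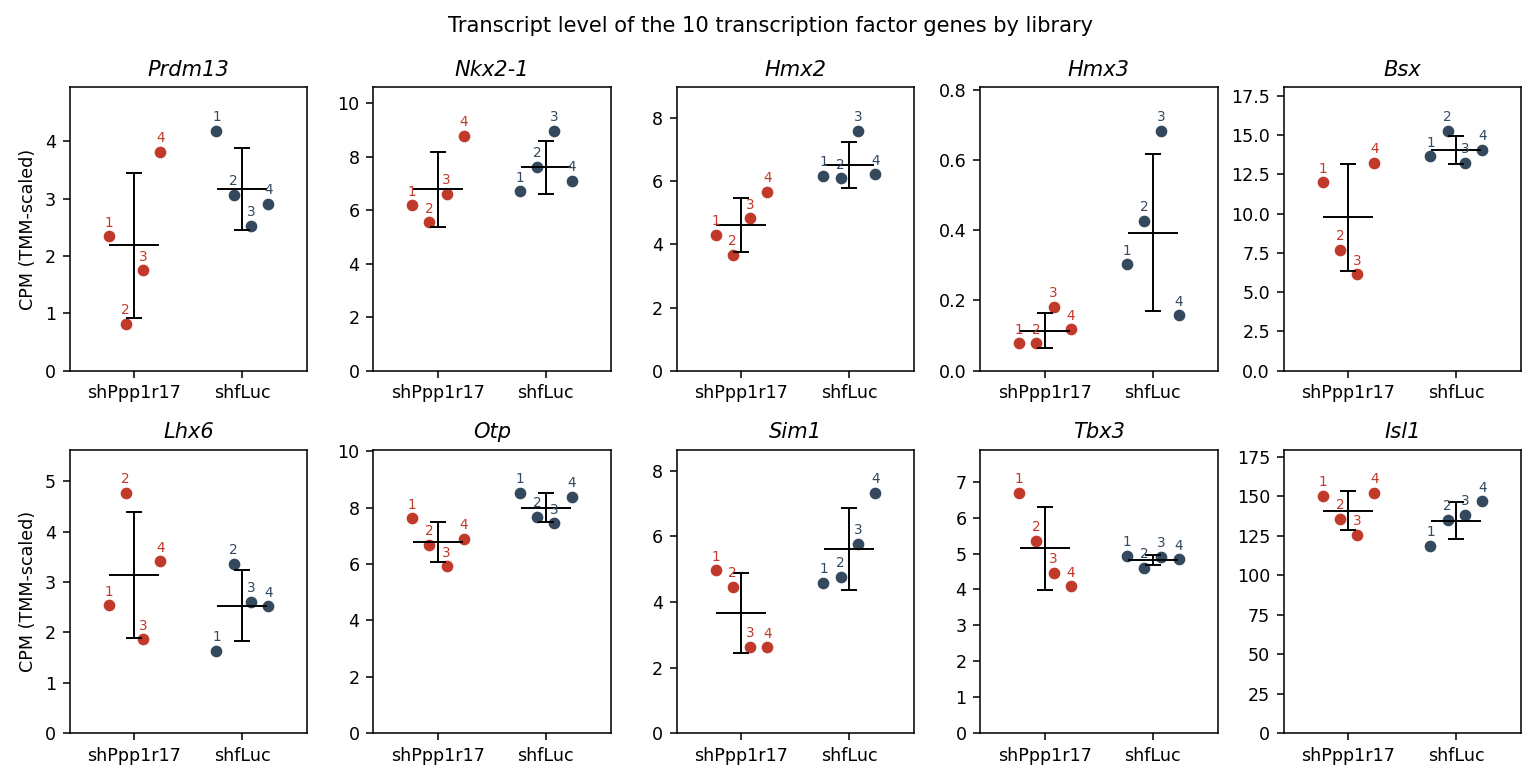
Level in CPM of each of the 10 genes in the 4 shPpp1r17 libraries (left in each panel) and the 4 shfLuc libraries (right), with 1 numbered point per library and the mean ± SD of the group. Hmx2 and Bsx are the genes whose groups do not overlap, as in 13.9 percent of all tested genes in either direction. Prdm13 spreads from 0.820 to 3.82 CPM within shPpp1r17.

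Otp and Sim1 direct the neuroendocrine neurons of the paraventricular nucleus and its surroundings: Otp is a homeodomain protein, and Sim1 a basic helix-loop-helix protein with a PAS domain that pairs with Arnt2. Otp (ENSMUSG00000021685; chr13:94875602-94885130, plus strand, GRCm38) stood at 7.62, 6.68, 5.92 and 6.88 CPM in shPpp1r17 1 to 4, and at 8.51, 7.67, 7.44 and 8.38 CPM in shfLuc 1 to 4. In CPM the highest shPpp1r17 library lay above the lowest shfLuc library. In TPM, Otp was at 5.95, 5.34, 4.54 and 5.61 in shPpp1r17 1 to 4 and at 6.79, 6.41, 6.41 and 6.96 in shfLuc 1 to 4. There the groups did not overlap. The effective length of Otp ran from 1525 to 1603 in shPpp1r17 and from 1579 to 1611 in shfLuc. With the effective length offset the log2 fold change of Otp was -0.22 (adjusted p = 0.461 in edgeR). With limma on log2(TPM + 1) the median of all tested genes was itself below 0, at -0.06. What set CPM and TPM apart for Otp was not tested. By exact two-sided permutation p was 0.0571 in CPM and 0.0286 in TPM (n = 4 each). TPM non-overlap on the lower side was found for 3 of the 9 tested genes (Hmx2, Bsx and Otp). Of all tested genes 9.85 percent showed it, and 14.2 percent in either direction. CPM non-overlap was found for 2 of the 9, where 6.74 percent of all tested genes showed it on the lower side (13.9 percent in either direction). The log2 fold change of Otp was -0.24 (SE 0.15, adjusted p = 0.372 in edgeR), and -0.15 without shPpp1r17 2 and 3 (adjusted p = 0.767 in edgeR).

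Sim1 (ENSMUSG00000019913; chr10:50894754-50989152, plus strand, GRCm38) stood at 4.96, 4.45, 2.63 and 2.62 CPM in shPpp1r17 1 to 4, and at 4.58, 4.77, 5.77 and 7.32 CPM in shfLuc 1 to 4. Its low libraries were shPpp1r17 3 and 4, while shPpp1r17 1 lay above 2 shfLuc libraries, so the order of the libraries was not that of Ppp1r17. The means were 3.66 ± 1.22 CPM in shPpp1r17 and 5.61 ± 1.25 CPM in shfLuc (SD, n = 4 each; exact two-sided permutation p = 0.114). The log2 fold change of -0.62 (SE 0.26) was the lowest of the 9 tested genes, with an adjusted p of 0.175 in edgeR. It was -0.58 without shPpp1r17 2 and 3 (adjusted p = 0.462 in edgeR). Arnt2, the partner of Sim1, was at 94.2 ± 4.04 CPM in shPpp1r17 and 98.7 ± 3.02 CPM in shfLuc (log2 fold change -0.07, SE 0.07, adjusted p = 0.607 in edgeR). Among peptides of this lineage, Trh, the gene of thyrotropin-releasing hormone, was at 110 ± 31.5 CPM in shPpp1r17 and 161 ± 31.0 CPM in shfLuc (-0.54, SE 0.18, adjusted p = 0.0994 in edgeR). Crh, the gene of corticotropin-releasing hormone, was low, at 0.280 ± 0.0727 CPM in shPpp1r17 and 0.633 ± 0.144 CPM in shfLuc (-1.15, SE 0.46, adjusted p = 0.154 in edgeR). Its groups did not overlap in CPM, as in 6.74 percent of all tested genes on the lower side. Oxt, the gene of oxytocin, did not exceed 7.52 CPM in any library, and Avp, that of vasopressin, did not exceed 0.227 TPM.

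The 4 remaining genes showed smaller or upward fitted values. Nkx2-1 (ENSMUSG00000001496; chr12:56531958-56536908, minus strand, GRCm38), the early regulator of ventral hypothalamic fate, stood at 6.17, 5.54, 6.61 and 8.76 CPM in shPpp1r17 1 to 4, and at 6.70, 7.63, 8.97 and 7.08 CPM in shfLuc 1 to 4. The groups overlapped, with shPpp1r17 4 above 3 of the 4 shfLuc libraries (log2 fold change -0.16, SE 0.18, adjusted p = 0.647 in edgeR). Isl1 (ENSMUSG00000042258; chr13:116298281-116309689, minus strand, GRCm38), a LIM homeodomain protein of arcuate and other tuberal neurons, stood at 150.3, 136, 126 and 152 CPM in shPpp1r17 1 to 4, and at 118, 135, 138 and 147 CPM in shfLuc 1 to 4. It had the smallest SE of the 9 tested genes, and the groups overlapped (0.07, SE 0.09, adjusted p = 0.706 in edgeR). The effective length of Isl1 ran from 1463 to 1644 in shPpp1r17 and from 1714 to 1891 in shfLuc, without overlap. With the effective length offset its log2 fold change was 0.26 (adjusted p = 0.142 in edgeR). What set the lengths apart was not tested. Pomc, whose expression in arcuate neurons depends on Isl1 in the mouse, was at 9.80 ± 1.96 CPM in shPpp1r17 and 9.21 ± 3.52 CPM in shfLuc (0.09, SE 0.27, adjusted p = 0.887 in edgeR).

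Tbx3 (ENSMUSG00000018604; chr5:119670669-119684724, plus strand, GRCm38), a T-box factor that maintains peptide expression of arcuate neurons in the mouse, stood at 6.68, 5.35, 4.46 and 4.09 CPM in shPpp1r17 1 to 4, and at 4.93, 4.602, 4.91 and 4.84 CPM in shfLuc 1 to 4. The shfLuc libraries were close together, the highest 1.07 times the lowest, and the shPpp1r17 libraries lay on both sides of them, the highest 1.63 times the lowest. Its log2 fold change was 0.09 (SE 0.20, adjusted p = 0.834 in edgeR), and turned to -0.032 on log2(TPM + 1), -0.056 on log2(TPM + 0.1) and -0.059 without shPpp1r17 1. An antisense gene, Tbx3os1, with 12 to 39 reads, shares 115 of the 6624 exonic bases of Tbx3, and the strand used in counting is not given in the sources used here, so reads from those bases cannot be told apart. Lhx6 (ENSMUSG00000026890; chr2:36081953-36105408, minus strand, GRCm38), a LIM homeodomain protein of GABAergic neurons, stood at 2.54, 4.76, 1.86 and 3.41 CPM in shPpp1r17 1 to 4, and at 1.64, 3.37, 2.61 and 2.52 CPM in shfLuc 1 to 4. The highest library was shPpp1r17 2 and the lowest shfLuc 1, and the groups overlapped (0.31, SE 0.32, adjusted p = 0.616 in edgeR).

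Set beside one another by library, the low values did not fall in the same libraries for every gene. Relative to the shfLuc mean on the log2 scale, Bsx was at -0.23, -0.86, -1.19 and -0.09 in shPpp1r17 1 to 4, and Prdm13 at -0.40, -1.83, -0.80 and 0.29. Both were lowest in the shPpp1r17 libraries 2 and 3, where Ppp1r17 was at -6.22 and -5.65 against -0.86 and -0.87 in libraries 1 and 4. Otp, at -0.07, -0.26, -0.43 and -0.21, was also lowest in libraries 2 and 3, though library 4 lay close to library 2. Hmx2 was at -0.59, -0.81, -0.42 and -0.19, and Sim1 at -0.15, -0.30, -1.05 and -1.05. Hmx3 was at -1.47, -1.47, -0.73 and -1.14, low in all 4 but from few reads, and Nkx2-1 at -0.29, -0.44, -0.19 and 0.21. Isl1 (0.16, 0.02, -0.09 and 0.18), Tbx3 (0.47, 0.15, -0.11 and -0.23) and Lhx6 (0.05, 0.93, -0.39 and 0.46) had values on both sides of 0. Of the 9 tested genes, 4, 6, 7 and 5 were below every shfLuc library in shPpp1r17 1, 2, 3 and 4, where 22.7, 29.1, 28.8 and 25.2 percent of all tested genes were.

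**Figure D4:**
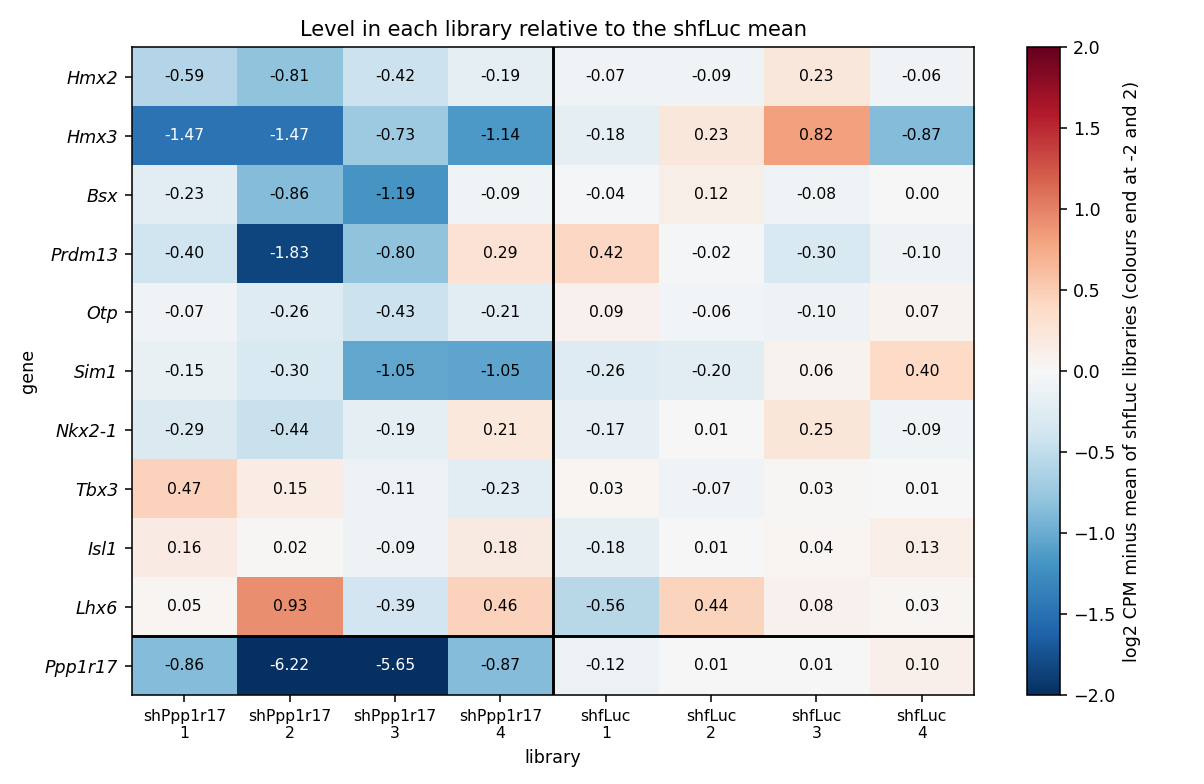
Level of the 10 genes and of Ppp1r17 in each library relative to the shfLuc mean, as log2 CPM, with the 4 shPpp1r17 libraries at the left and the 4 shfLuc libraries at the right. Bsx, Prdm13 and, by a small margin, Otp are lowest in the shPpp1r17 libraries 2 and 3, as Ppp1r17 is, and Sim1 is lowest in 3 and 4.

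For the 5 tested genes that spanned more than 1 log2 unit between their extreme libraries, the nearest of 9644 other genes over the 8 libraries were found by the root mean square distance of log2 CPM, each gene centred on its own mean. The nearest to Bsx were Dcaf11 (0.0715), Rundc3b (0.0914) and Pdk2 (0.0939), where the spread of Bsx itself about its mean was 0.438. The nearest to Hmx2 were Wdr4 (0.0817), Tmem18 (0.0919) and Baz2a (0.118), with a spread of 0.312 for Hmx2. For Sim1 they were Thrb (0.179), Unc13c (0.209) and Bend4 (0.211), with a spread of 0.472. For Prdm13 Cox6a1 (0.252), Tigar (0.280) and Atpaf1 (0.286) came nearest, with a spread of 0.669, and for Lhx6 Fam107b (0.236), Dcbld2 (0.272) and Zfp773 (0.284), with a spread of 0.449. The distances are not scaled to a gene's own spread, so they do not rank these genes by closeness of their neighbours. The motif CTCTGATA or a 7-base part of it lay in the 3′ UTR of all 3 neighbours of Bsx and all 3 of Prdm13, and in 1 of 3 for each of Hmx2, Lhx6 and Sim1. It lay in 20.2% of tested genes and in 56.9% of those called lower in shPpp1r17. Motif and neighbours were both picked from these same 8 libraries, so the counts are no independent evidence. Bsx and Prdm13 themselves held none in their longest annotated 3′ UTR. That says only that these letters are not in those stretches.

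Promoter sequence is shown for Hmx2, Bsx and Otp, the genes whose TPM groups did not overlap, so that their starts can be compared. Each is the 250 bases before the annotated start (RefSeq, GRCm38.p6, plus strand), at chr7:131548507-131548756 for Hmx2, chr9:40873877-40874126 for Bsx and chr13:94875386-94875635 for Otp. Capitals mark the motifs found in each on either strand: TATAAA in Hmx2, CCAAT in Bsx, and CCAAT together with the homeodomain core TAAT in Otp. A match on the minus strand appears as its reverse complement.
Hmx2 promoter: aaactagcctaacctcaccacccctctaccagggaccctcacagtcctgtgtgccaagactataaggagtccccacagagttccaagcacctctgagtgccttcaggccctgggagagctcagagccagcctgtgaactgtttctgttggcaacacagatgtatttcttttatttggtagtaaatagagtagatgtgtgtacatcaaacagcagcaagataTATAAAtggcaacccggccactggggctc
Bsx promoter: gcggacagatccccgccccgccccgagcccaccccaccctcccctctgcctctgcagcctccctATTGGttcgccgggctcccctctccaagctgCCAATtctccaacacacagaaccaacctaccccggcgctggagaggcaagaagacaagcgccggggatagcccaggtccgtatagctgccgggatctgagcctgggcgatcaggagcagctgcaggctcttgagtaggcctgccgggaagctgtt
Otp promoter: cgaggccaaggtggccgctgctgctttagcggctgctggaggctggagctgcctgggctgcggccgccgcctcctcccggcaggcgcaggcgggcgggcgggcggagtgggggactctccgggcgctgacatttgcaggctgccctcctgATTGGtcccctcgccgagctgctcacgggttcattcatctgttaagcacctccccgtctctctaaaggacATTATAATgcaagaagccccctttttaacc
The Hmx2 window shown had 49.6% G and C, below the 65.6% of Bsx and the 65.2% of Otp, and its TATAAA began 29 bases before the start. Hmx2 has a second window, chr7:131554043-131554292, which had 70% G and C, a CCAAT and no TATAAA; the data do not show which start was used. Over the set, 12 windows were available for 9 of the 10 genes; Tbx3 is named only. Of the 12 windows, 5 held TAAT, 7 held CCAAT and 2 held TATAAA, where 54.9%, 33.8% and 12.4% of all 32851 windows did. The cores CAAGTG of NK2 homeodomain proteins such as Nkx2-1, AGGTGT of T-box proteins and TACGTG of basic helix-loop-helix proteins with a PAS domain, searched on both strands, were in 0 of the 12 windows and in 11.6%, 11.8% and 2.72% of all windows. A match is a description of letters, and none of these windows shows where a factor binds.

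Other transcription factors of the region were read as a background to the 10 genes, from lists chosen with earlier results of these data known. Among 18 other factors of tuberal and arcuate neurons, 17 were tested, 0 rose and 1 fell, and the median log2 fold change was 0.04. The one that fell was Prox1, a homeobox gene, at 48.4, 39.0, 39.4 and 44.3 CPM in shPpp1r17 1 to 4 and at 59.0, 56.3, 61.4 and 50.4 CPM in shfLuc 1 to 4 (-0.41, SE 0.09, adjusted p = 0.0258 in edgeR). Every shPpp1r17 library lay below every shfLuc library. Prox1 was no longer past the threshold without shPpp1r17 2 and 3 (-0.30, adjusted p = 0.255 in edgeR), nor without shfLuc 2 (adjusted p = 0.0807), shfLuc 3 (0.0945), shPpp1r17 2 (0.0811) or shPpp1r17 3 (0.0951) alone. It also missed the threshold with limma on log2(TPM + 1) (adjusted p = 0.0567) and with a correction for length and GC content (adjusted p = 0.0679 in edgeR). The next of that list were Etv1, an ETS factor (0.30, SE 0.10, adjusted p = 0.0915 in edgeR), and Dlx1, a homeodomain factor of GABAergic neurons (-0.30, SE 0.11, adjusted p = 0.116 in edgeR). Of the 8 genes of the ventromedial nucleus, all tested, 0 passed, and the median was 0.25. Nr5a1, the defining factor of that nucleus, was at 2.46, 1.91, 1.31 and 1.65 CPM in shPpp1r17 1 to 4 and at 2.51, 0.980, 0.385 and 0.197 CPM in shfLuc 1 to 4 (0.85, SE 0.59, adjusted p = 0.428 in edgeR), so the shfLuc libraries 2 to 4 held less of it than shfLuc 1, and the nuclear receptors Nr2f2 and Nr2f1 were at -0.24 and -0.21 (adjusted p = 0.0736 and 0.328 in edgeR).

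Of 4 other paraventricular factors 3 were tested and 0 passed, with a median log2 fold change of -0.21: the POU factor Pou3f3 was at -0.30 (SE 0.11, adjusted p = 0.133 in edgeR) and Pou3f2 at -0.21 (SE 0.09, adjusted p = 0.179 in edgeR). Of 15 lateral and mammillary factors 9 were tested and 0 passed, with a median of -0.29. Foxb1, a forkhead factor of the mammillary region, was at 2.66, 0.898, 0.877 and 3.498 CPM in shPpp1r17 1 to 4 and at 3.07, 4.90, 4.27 and 4.05 CPM in shfLuc 1 to 4 (-1.03, SE 0.40, adjusted p = 0.151 in edgeR), again lowest in the shPpp1r17 libraries 2 and 3. Meis2, a homeobox gene, was at 1.14 and Foxp2, a forkhead gene, at -0.29 (adjusted p = 0.153 and 0.169 in edgeR). Of 10 factors of the thalamus and zona incerta 9 were tested, 0 rose and 1 fell, Rorb, a nuclear receptor (-0.48, SE 0.12, adjusted p = 0.0329 in edgeR). Rorb stood at 223, 164, 149 and 163 CPM in shPpp1r17 1 to 4 and at 207, 254, 264 and 252 CPM in shfLuc 1 to 4. Rorb was no longer past the threshold without shPpp1r17 2 and 3 (-0.34, adjusted p = 0.298 in edgeR). The call was also lost without any 1 of shfLuc 2, 3 and 4 and shPpp1r17 2, 3 and 4 (adjusted p of 0.0511 to 0.110 in edgeR). It was lost as well with a correction for length and GC content (adjusted p = 0.0611 in edgeR) and with the replicate number as a block (0.0668). The median of that list was -0.02, with the zinc finger gene Zic1 at 0.90 and Tcf7l2, a thalamic factor of Wnt signalling, at -0.40 (adjusted p = 0.212 and 0.253 in edgeR). Of 9 cortical and hippocampal factors 5 were tested and 0 passed, with a median of 0.15; Tbr1 was at 0.93, Fezf2 at 0.45 and Bcl11b at 0.15 (adjusted p = 0.495, 0.719 and 0.798 in edgeR). Among 11 genes for binding partners, such as the LIM cofactor Ldb1 and the homeodomain partner Pbx3 (-0.21, SE 0.10, adjusted p = 0.256 in edgeR), 10 were tested and 0 passed, with a median of -0.05.

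Among 20 genes of the neurons that these factors mark, 18 were tested, 1 rose and 0 fell, with a median log2 fold change of -0.30. That count of 1 was 3 with DESeq2 or limma voom, 5 with no filter, 6 with quality weights, 0 with limma on log2(TPM + 1), and 0 to 3 with single libraries left out (0 without shfLuc 2 or shfLuc 3, and 3 without shPpp1r17 1 or shPpp1r17 4). The one that rose was Cartpt, the CART peptide gene, at 264, 237, 282 and 265 CPM in shPpp1r17 1 to 4 and at 189, 193, 211 and 217 CPM in shfLuc 1 to 4 (0.37, SE 0.08, adjusted p = 0.0175 in edgeR). No shPpp1r17 library overlapped with the shfLuc libraries. The call was lost without shPpp1r17 2 and 3 (0.38, adjusted p = 0.101 in edgeR), without shfLuc 2 (adjusted p = 0.0704), without shfLuc 3 (0.0601) and without shPpp1r17 3 (0.0680). It was also lost with limma on log2(TPM + 1) (adjusted p = 0.0656) and with a correction for length and GC content (0.24, adjusted p = 0.112 in edgeR). Brs3, a receptor gene of DMH neurons that regulate body temperature and feeding, was at 34.1, 7.26, 8.47 and 29.4 CPM in shPpp1r17 1 to 4 and at 39.3, 43.2, 51.1 and 46.1 CPM in shfLuc 1 to 4 (-1.18, SE 0.39, adjusted p = 0.0910 in edgeR). Its groups did not overlap, as in 6.74 percent of all tested genes on the lower side. Like Bsx, Prdm13, Otp and Foxb1 it was lowest in the shPpp1r17 libraries 2 and 3. Without these libraries Brs3 was at -0.50 (adjusted p = 0.122 in edgeR). Brs3 passed in 4 of 21 alternatives, among them limma voom (-1.46, adjusted p = 0.0363) and edgeR without shPpp1r17 1 (-1.56, adjusted p = 0.0293). Gal, the galanin gene, was at 1163 ± 147 CPM in shPpp1r17 and 1441 ± 136 CPM in shfLuc (SD, n = 4 each; -0.31, SE 0.09, adjusted p = 0.0659 in edgeR), and passed in 6 of 21 alternatives.

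**Figure D5:**
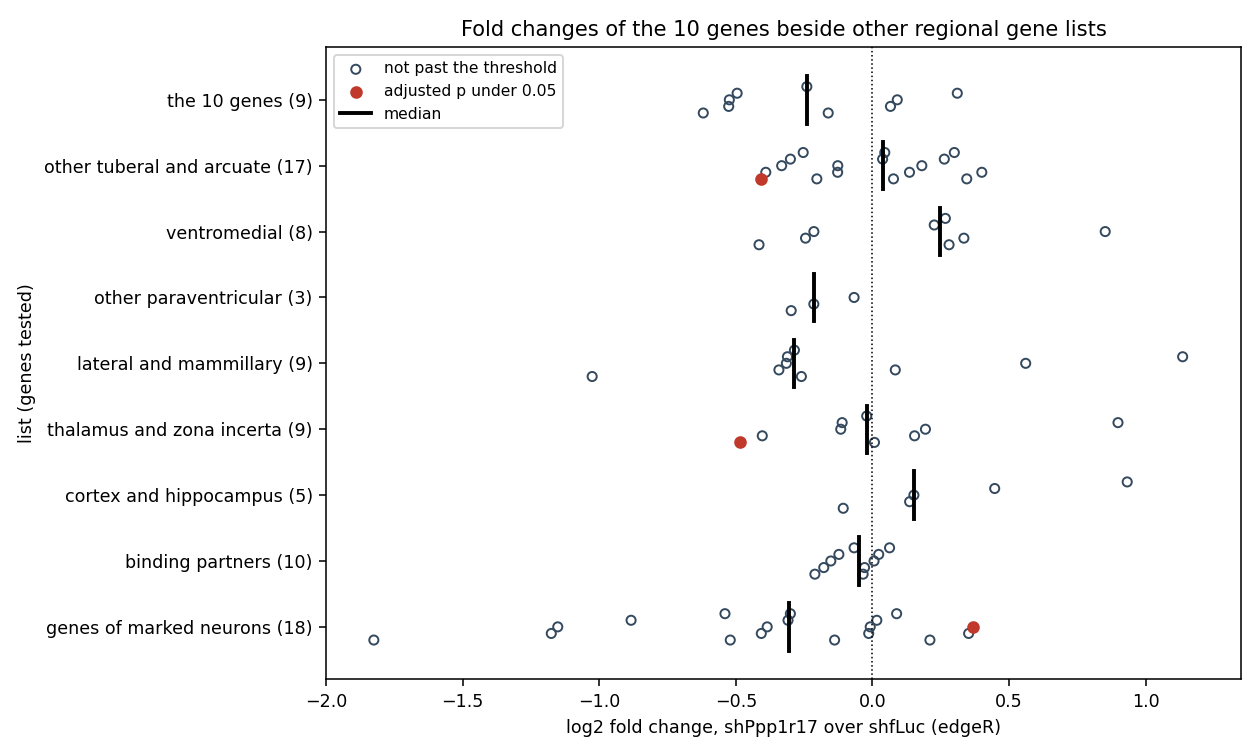
Log2 fold change in edgeR, shPpp1r17 over shfLuc, of each tested gene of the 10 and of the lists of other factors, partners and genes of the marked neurons, with the list median as a bar and genes past an adjusted p of 0.05 filled. The genes of the marked neurons include Ppp1r17, the target of the hairpin. The 3 filled points are Prox1, Rorb and Cartpt, and the median of the 10 lies at -0.24.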

How the data were processed

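Libraries were made from total RNA of 8 mouse DMH samples with a SMARTer mRNA kit, per the labels' protocols. For 55487 Ensembl identifiers in each library the authors' deposited tables give, per the file headers, length, effective length, TPM and an estimated count of reads. Tools named in the submitters' processing notes are limma, edgeR, DRAGEN and bcl2fastq. Aligner settings, genome build, annotation and counting strand were not given in the sources used here. Expected counts that the authors deposited (fractional for up to 10.1% of genes) were rounded. Deposited TPM, which the authors scaled to length and library, gave levels between genes, and the deposited effective length, per the file headers, an alternative offset. Symbols matched 55141 identifiers. Coordinates are from GENCODE M21 (GRCm38), which may differ from the build the authors used. Library totals ran from 23070147 to 33907984, and PCR copies were not told apart by molecular identifiers, so reads are not independent molecules.

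Groups were taken from sample titles. The genes and lists were chosen with earlier results of these data known. The test was the quasi-likelihood test of edgeR 4.0.16 (R 4.3.3; TMM factors; filter with minimum count 10 and minimum total count 15), with the group as its one term, adjusted after Benjamini and Hochberg over 17339 genes at a threshold of 0.05. CPM are scaled by the TMM library sizes, and log2 CPM have a prior count of 2. The fold change and F statistic gave the standard errors. Single levels were compared by exact permutation over 70 splits. Genes named were the 10, Ppp1r17, up to 3 genes with the smallest p per list (cell type lists are given as counts and sums), and the 3 nearest profiles of each tested gene spanning more than 1 log2 unit, among genes whose average log2 CPM was at least 3. Npy, Agrp, Ghrh, Pomc, Trh, Crh, Oxt, Avp, Pmch, Slc17a7, Ldb1 and Tbx3os1 were named outside this rule, after their values were seen. Some genes the rule selects are not reported here.

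Alternatives were DESeq2 1.42.0, limma 3.58.1 (voom, voom with quality weights, log2(TPM + 1) and log2(TPM + 0.1)), RLE factors, library totals, no and a stricter filter, effective length offsets, a block for the replicate number, and single libraries left out. The fit without shPpp1r17 2 and 3, and an offset for trends with length and GC content (known for 99.9% of tested genes), were added after seeing the data. Within groups, chi-square per degree of freedom between 2 libraries was 7.37 to 40.7, so no library was another one sequenced again. This value cannot tell separate animals from separate preparations of the same RNA. Other software was pandas 2.3.3, SciPy 1.17.1, NumPy 2.4.6 and Python 3.11.15.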

Additional observations from a re-analysis of the deposited data

Results flagged for a closer look

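Of 22 groups of 4 libraries checked for a value far from the rest (the 10 genes and Ppp1r17 in each group), 1 stood out, where chance gives about 1 in 20. Hmx2 in shfLuc 3 was at 7.61 CPM, while the other shfLuc libraries lay between 6.09 and 6.21 CPM, so the gap to the nearest took 0.920 of the group's range, above Dixon's limit for 4 values. Without shfLuc 3 the log2 fold change of Hmx2 was -0.41, and with all 8 libraries -0.50 (adjusted p = 0.316 and 0.133 in edgeR).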

How the results depend on the processing

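Over 189 alternatives for the 9 tested genes, 184 kept both the direction and the side of the threshold, 2 passed it (Bsx) and 3 turned the direction (Tbx3). Ranges of the log2 fold change were -0.95 to -0.038 for Prdm13, -0.61 to -0.37 for Hmx2, -0.71 to -0.16 for Bsx, -0.80 to -0.30 for Sim1, -0.31 to -0.15 for Otp, -0.31 to -0.024 for Nkx2-1, 0.042 to 0.49 for Lhx6 and 0.0087 to 0.26 for Isl1. Tbx3, at 0.09, came to -0.032 on log2(TPM + 1), to -0.056 on log2(TPM + 0.1) and to -0.059 without shPpp1r17 1, the lowest of the fits with a single library left out, of which 0.19 was the highest. The count past the threshold was 0, but 1 (Bsx) with limma voom and quality weights, and 0 to 1 with single libraries left out (1 without shPpp1r17 4). The cause was not tested. Genes whose groups did not overlap numbered 2 in CPM and with library totals, and 3 in TPM. Of all tested genes, 6.74 percent did not overlap on the lower side in CPM and 9.85 percent in TPM. In either direction these shares were 13.9 and 14.2 percent. The log2 ratio of Hmx3 means ran from -2.10 to -1.37.

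Over all tested genes 1050 passed in edgeR, 1903 with DESeq2, 1763 with voom and quality weights, and 37 without shPpp1r17 2 and 3. Leaving out single libraries gave 0 to 1548: 0 without shfLuc 2 or shfLuc 3 in edgeR (3309 and 3146 genes at an unadjusted p under 0.05), 287 without shfLuc 4, 310 without shPpp1r17 2 and 196 without shPpp1r17 3. On log2(TPM + 1) the median of all genes shifted to -0.06 and the share of calls that were higher from 56% to 38.8%. Ppp1r17, at -1.83 (adjusted p = 0.197 in edgeR), passed with limma voom (-3.31), with quality weights (-3.85) and without shPpp1r17 2 and 3 (-0.88), and lay between -2.37 and -1.43 with single libraries left out. With the replicate number as a block, edgeR called 726 genes and 0 of the 10; Rorb missed the threshold (adjusted p = 0.0668) and Gal passed it (0.0457). Same-numbered libraries deviated with correlations of -0.0116, 0.0354, 0.00569 and 0.116, and 2 of the 4 shPpp1r17 libraries correlated best with their own number, so the numbers were not taken as pairs. Counts per list stayed within 1.5 times in 264 of 357 alternatives. These include lists with 0 calls in edgeR on all libraries, among them hindbrain and spinal cord, with 0 genes tested. That share therefore does not describe the lists that had calls.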
